A study of Mus musculus with 7 samples.

Results

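The genes described are 9 transcripts that mark mouse pluripotent stem cells and appear late in reprogramming: Dppa2, Dppa4, Dppa5a, Utf1, L1td1, Zfp42, Fbxo15, Triml1 and Tcl1. They were listed by name as known markers, with earlier results of these data in view, and all 9 were found, each on 1 probe set with a single gene symbol, among the 22180 genes measured. RNA of 7 cultures of strain 129 mouse cells was measured, 1 culture on each Affymetrix array. The groups were Nanog knockout (KO) induced pluripotent stem cells (iPSC, 2 arrays), wild-type (WT) iPSC (2 arrays), WT embryonic stem cells (ESC, 1 array), Nanog KO embryonic fibroblasts (MEF, 1 array) and WT MEF (1 array). The labels call the iPSC replicates biological without saying whether they are separate lines, and they do not describe the Nanog allele, the reprogramming factors or any reprogramming transgene. Media for ESC and MEF and a 2i/LIF medium are listed, but not which cells grew in which, so a difference in medium between the genotypes cannot be told apart from the genotype.

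Pluripotent cells keep a set of genes active that most body cells silence, under a transcription factor network built around Oct4 (Pou5f1), Sox2 and Nanog. During reprogramming of fibroblasts, genes such as Utf1, Dppa2, Dppa4, Zfp42 and Fbxo15 are switched on after the first changes in cell shape and proliferation, and they are widely used to recognise iPSC. Dppa2 and Dppa4 are DNA-binding partner proteins that mark developmental promoters, Utf1 is a chromatin protein, Zfp42 (Rex1) a zinc finger protein, L1td1 an RNA-binding protein related to LINE-1 elements, Fbxo15 an F-box protein, Triml1 a tripartite-motif-like protein and Tcl1 a cofactor of the kinase Akt.

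The 5 members with an entry in the RefSeq promoter table (GRCm38.p6) differed in what their promoters held, and 4 of these promoters are printed because their genes are the ones that separated the genotypes (Utf1, Triml1 and Tcl1) or lie beside one that did (Zfp42). Each runs 5′ to 3′ on the gene's own strand, from 250 bases before the start site to 50 after it, and capitals mark the motifs found on either strand.
Utf1, chr7:139943606-139943905, plus strand: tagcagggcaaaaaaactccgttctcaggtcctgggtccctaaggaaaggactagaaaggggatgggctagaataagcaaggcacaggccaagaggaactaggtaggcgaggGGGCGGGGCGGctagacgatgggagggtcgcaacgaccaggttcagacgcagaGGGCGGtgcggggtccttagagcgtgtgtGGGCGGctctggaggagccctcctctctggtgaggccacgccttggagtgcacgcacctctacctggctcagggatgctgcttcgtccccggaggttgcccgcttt
Triml1, chr8:43141437-43141736, minus strand: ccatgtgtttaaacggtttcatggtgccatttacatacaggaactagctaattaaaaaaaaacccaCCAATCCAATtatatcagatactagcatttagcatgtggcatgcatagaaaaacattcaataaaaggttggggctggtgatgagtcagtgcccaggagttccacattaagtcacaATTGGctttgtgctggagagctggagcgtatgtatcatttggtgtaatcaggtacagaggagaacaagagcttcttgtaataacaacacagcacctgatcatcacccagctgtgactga
Tcl1, chr12:105222688-105222987, minus strand: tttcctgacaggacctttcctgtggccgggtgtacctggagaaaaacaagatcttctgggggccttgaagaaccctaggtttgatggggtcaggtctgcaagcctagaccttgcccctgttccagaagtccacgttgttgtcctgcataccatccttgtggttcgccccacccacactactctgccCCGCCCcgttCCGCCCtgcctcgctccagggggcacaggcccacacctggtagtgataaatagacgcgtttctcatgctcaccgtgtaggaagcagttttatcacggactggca
Zfp42, chr8:43306960-43307259, minus strand: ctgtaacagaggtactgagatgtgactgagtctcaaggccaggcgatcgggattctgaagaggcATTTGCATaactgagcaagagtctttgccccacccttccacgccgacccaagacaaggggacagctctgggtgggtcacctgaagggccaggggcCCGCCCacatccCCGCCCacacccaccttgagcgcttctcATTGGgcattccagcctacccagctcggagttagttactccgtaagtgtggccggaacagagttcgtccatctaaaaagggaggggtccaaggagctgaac
The motifs searched, with the share of all 32851 promoters in the table that hold each, were the octamer ATGCAAAT (1.74%), the SOX core CATTGT (12.6%), the E-box CACGTG (7.15%), the CCAAT box CCAAT (37.4%), the GC box GGGCGG (35.7%) and the TATA box TATAAA (13.6%). The Utf1 promoter held 4 GC boxes, beginning at -138, -133, -85 and -56 from the start site, the first pair sharing 1 base. Triml1 held 3 CCAAT boxes and no GC box, and Tcl1 held 2 GC boxes. Zfp42 held 1 octamer, the element that POU factors such as Oct4 recognise, on the reverse strand at -186, with 2 GC boxes and 1 CCAAT box nearer the start. The L1td1 promoter held none of the 6 motifs. G and C made up 41.3% of the Triml1 promoter, which had 2 CpG, against 62% and 17 CpG for Utf1 and a median of 52.7% and 7 CpG over all promoters. A motif match is a description of these letters only.

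All levels are log2 intensities, and a level is compared only between arrays of the same probe set. As background on each array served the level that 95% of 1394 genes for olfactory or vomeronasal receptors stay under, which was 6.30 to 6.50. Nanog stood at 7.50 and 7.44 in KO iPSC, against 12.84 and 12.76 in WT iPSC and 12.73 in WT ESC, and at 6.42 in KO MEF and 6.53 in WT MEF. KO iPSC were lower than the 3 WT pluripotent arrays by a fitted log2 difference of -5.30 (SE 0.08, adjusted p = 3.57e-05 in limma), the direction of the KO label. The kind of KO allele, and where the probe set lies relative to its change, are not stated. The 6 measured pluripotency markers lay above background on all 5 pluripotent arrays, while Sox2, Tdgf1, Nr0b1 and Gdf3 lay below it in both MEF arrays. Pou5f1 (7.15 in WT MEF and 7.27 in KO MEF) and Sall4 (6.98 and 7.06) lay above background there too. Other cell type markers also differed between the groups. The summed intensity of 11 fibroblast markers was 10803.5 and 10785.1 in KO iPSC, against 24338.6 and 11895.9 in WT iPSC and 15190.4 in WT ESC, so WT iPSC replicate 1 stood apart. Postn was below background in KO iPSC and in WT iPSC replicate 2, and Lox in KO iPSC. The KO iPSC arrays each held 9 of the 11 fibroblast markers above background. In MEF the sums were 71099.2 for KO and 57157.7 for WT. Primed epiblast markers (6 measured) summed to 1975.6 and 2012.9 in KO iPSC, with Fgf5 and Otx2 below background, against 3171.7 and 4187.4 in WT iPSC and 6278.8 in WT ESC. Trophectoderm markers (6) summed to 1683.3 and 1644.0 in KO iPSC, with Tfap2a above background, against 721.2 to 778.8 on the WT pluripotent arrays, where it was below. Their median level differed less, at 7.21 and 7.26 in KO iPSC, against 6.94 to 7.15 on those WT arrays. Elf5 was below background on every array. Primitive endoderm markers (7) ranged from 1140.0 to 1149.7 in KO iPSC, against 1058.3 to 1257.9 on the WT pluripotent arrays. The part of these markers in the results was not tested, and on arrays of whole cultures fewer expressing cells and less RNA per cell cannot be told apart.

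**Figure D1:**
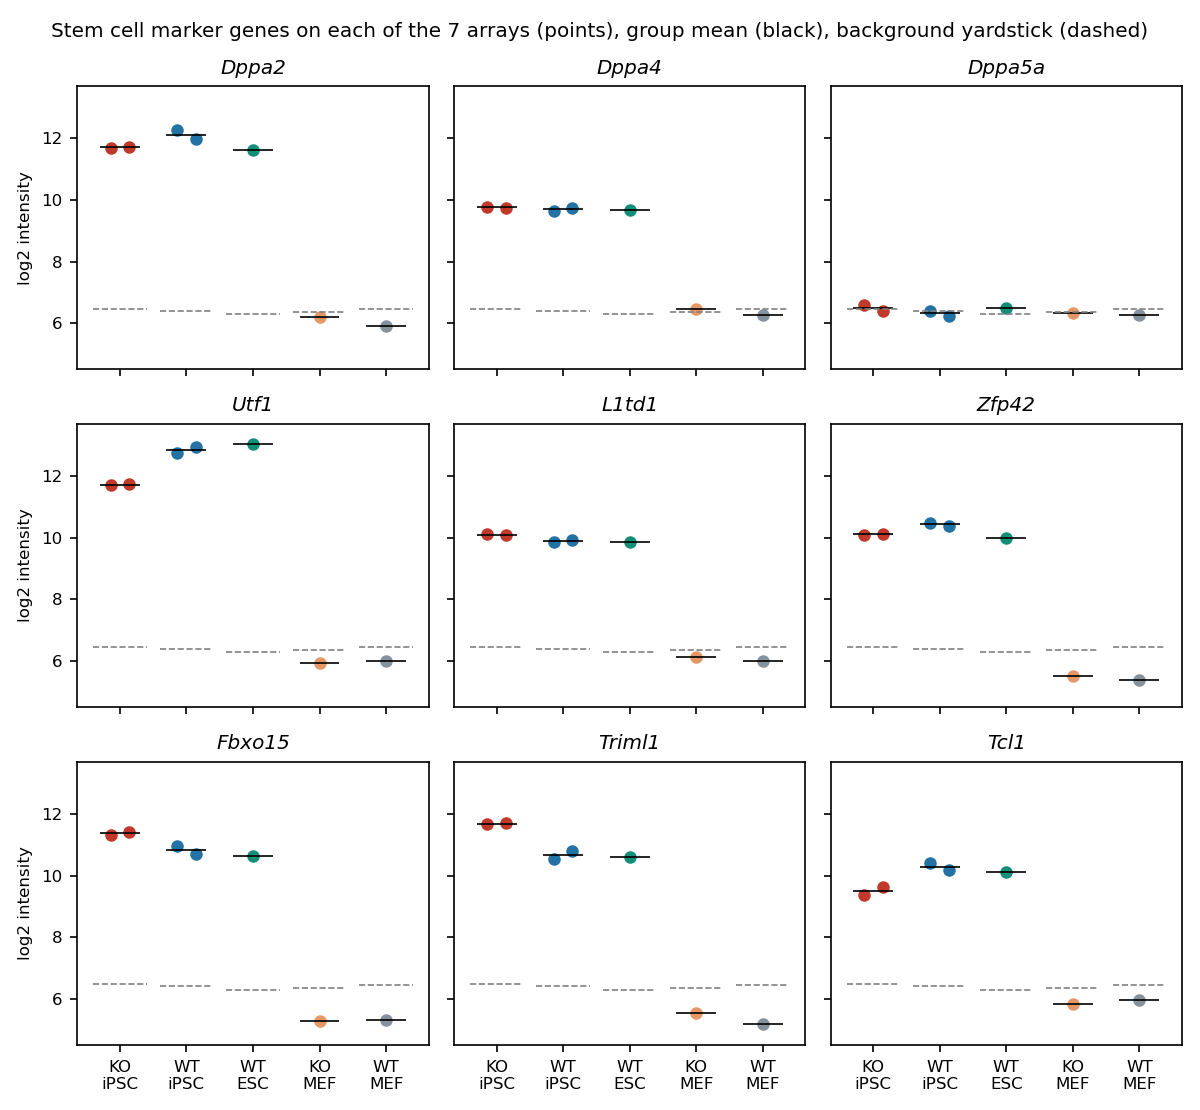
Log2 intensity of the 9 stem cell marker genes on each of the 7 arrays, with a point per array, a black line at each group's mean and a dashed line at the group's mean background. In 8 genes all 5 pluripotent arrays lie far above both MEF arrays, and Dppa5a lies near background in every group.

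Dppa5a, an RNA-binding KH domain protein known as a marker of mouse ESC, went against its label on these arrays. It stood at 6.58 and 6.39 in KO iPSC, 6.40 and 6.24 in WT iPSC, 6.49 in WT ESC, 6.34 in KO MEF and 6.27 in WT MEF. Only 2 arrays were above background, WT ESC by 0.19 and KO iPSC replicate 1 by 0.08, and all 7 values lay between 6.24 and 6.58. Whether the probe set detects other transcripts was not tested, and no order of the groups can be read from these levels.

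The other 8 genes separated pluripotent cells from fibroblasts in both genotypes. In WT cells, 8 of 9 members were higher in iPSC than in MEF and 0 were lower (background: 17.2% of all genes were higher and 15.4% lower). In KO cells the count was again 8 of 9 higher and 0 lower (background: 18.1% higher and 17.9% lower). The median fitted log2 difference over the 9 members was 4.60 for KO iPSC minus KO MEF, beside 0.07 over all genes, and 5.04 for WT iPSC minus WT MEF, beside -0.00 over all genes. Each of these tests sets 2 arrays against 1, with the lone MEF array assumed to vary like the iPSC groups. The genes mark the pluripotent state by definition, so these differences are the check of the label.

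Dppa2 stood at 11.70 and 11.72 in KO iPSC, against 6.19 in KO MEF, and at 12.26 and 11.97 in WT iPSC, against 5.91 in WT MEF. Every MEF value was below background, and the rise was at least 41-fold in KO iPSC (fitted log2 5.52, SE 0.15) and at least 50.6-fold in WT iPSC (6.20, SE 0.15). Its partner Dppa4 lay at 9.78 and 9.74 in KO iPSC, against 6.45 in KO MEF, just above that array's background by 0.10. In WT cells Dppa4 lay at 9.65 and 9.75 in iPSC, against 6.28 in MEF. The fold was 9.92 in KO cells and at least 9.48 in WT cells. Utf1 was at 11.73 on both KO iPSC arrays, against 5.95 in KO MEF, and at 12.75 and 12.93 in WT iPSC, against 6.01 in WT MEF. That is at least 41.6-fold in KO cells and at least 83.7-fold in WT cells.

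L1td1 had levels of 10.11 and 10.08 in KO iPSC, against 6.13 in KO MEF, and 9.85 and 9.92 in WT iPSC, against 5.99 in WT MEF, which is at least 13.4-fold in KO cells and at least 10.8-fold in WT cells. Zfp42 stood at 10.10 and 10.14 in KO iPSC, against 5.52 in KO MEF, and 10.47 and 10.39 in WT iPSC, against 5.39 in WT MEF, which is at least 13.6-fold in KO cells and at least 15.8-fold in WT cells. The remaining 3 members were also below background in both MEF arrays. Fbxo15 (5.26 in KO MEF and 5.31 in WT MEF) rose at least 32.6-fold in KO cells and at least 20.7-fold in WT cells. Triml1 (5.55 in KO MEF and 5.18 in WT MEF) rose at least 40.4-fold in KO cells and at least 18.5-fold in WT cells. Tcl1 (5.83 in KO MEF and 5.97 in WT MEF) rose at least 8.85-fold in KO cells and at least 14.3-fold in WT cells. Adjusted p ranged from 9.6e-05 to 0.000224 over the 8 genes and both genotypes in limma. Between the MEF arrays themselves, KO minus WT ran from -0.14 for Tcl1 to 0.36 for Triml1, with no test for 1 array each, and only Dppa4 in KO MEF was above background.

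**Figure D2:**
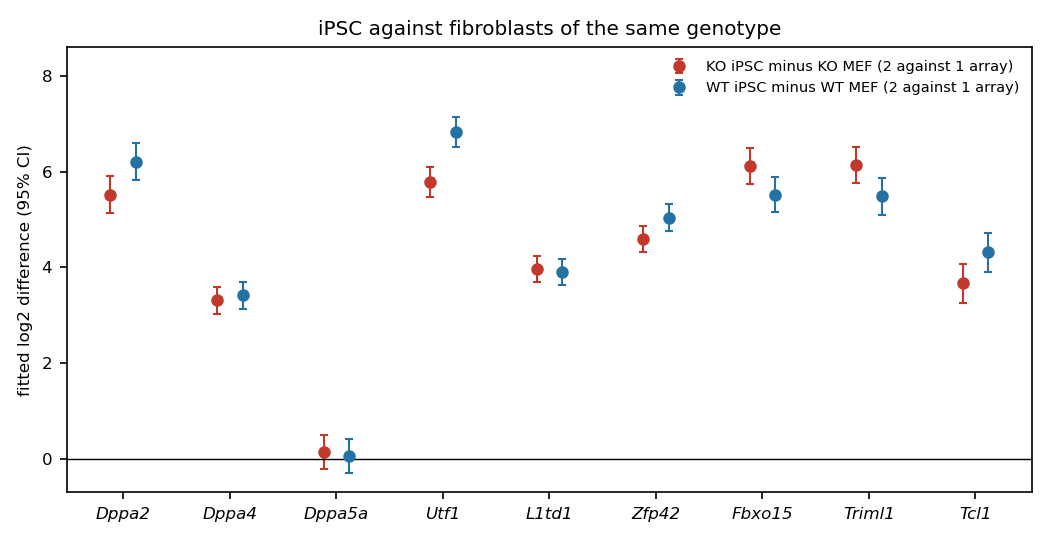
Fitted log2 difference between iPSC and MEF of the same genotype for the 9 genes, with 95% confidence intervals, KO in red and WT in blue (2 arrays against 1 in each). The 8 genes that rose have fitted differences from 3.31 to 6.83, and the Dppa5a intervals include 0.

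The comparison the series was designed for sets KO iPSC against the WT pluripotent cells (2 arrays against 3). Among the members Triml1 and Fbxo15 were higher in KO iPSC and Utf1 and Tcl1 lower. That is 2 of 9 higher and 2 of 9 lower, with 5 not past the threshold (background: 6.89% of all genes were higher and 8.81% lower). The median log2 difference was 0.07 over the members and 0.03 over all genes. After centring each array on its median 8.61% of all genes were higher and 7.3% lower, with the same 4 members called. The same 4 members also passed when WT ESC or the first WT iPSC replicate was left out. The 4 calls were lost with either KO iPSC replicate left out, or with both counted as 1. Those fits hold 1 KO value and take their spread from the 3 WT arrays alone. Without KO iPSC replicate 1 or 2 the differences were -1.18 and -1.18 for Utf1 and 1.06 and 1.02 for Triml1. They were 0.66 and 0.56 for Fbxo15 and -0.62 and -0.86 for Tcl1. The 2 KO arrays lay closer together than the 2 WT iPSC arrays, with an SD over all genes of the difference between arrays of 0.154 for KO and 0.323 for WT.

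Utf1, which occupies promoters of developmental genes in mouse ESC, was the member with the largest difference. It was 11.73 on both KO iPSC arrays, against 12.75 and 12.93 in WT iPSC and 13.04 in WT ESC. Both KO arrays lay below all 3 WT arrays, at 0.814 of the way from WT MEF to WT ESC on the log2 scale. The WT MEF value was below background, so this scale has no measured start. Utf1 averaged 11.73 ± 0.0027 in KO iPSC (SD, n = 2) and 12.91 ± 0.15 in the WT arrays (SD, n = 3), a 2.26-fold fall (log2 -1.18, SE 0.11, adjusted p = 0.00267 in limma). Against WT iPSC alone it fell 2.16-fold (log2 -1.11, SE 0.10, adjusted p = 0.00409). Without either KO replicate its adjusted p was 0.0545 and 0.0523 against all WT pluripotent arrays.

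Triml1, known in mouse as a gene of preimplantation embryos, moved the other way by a similar amount. It stood at 11.67 and 11.70 in KO iPSC, against 10.52 and 10.81 in WT iPSC and 10.60 in WT ESC. The groups did not overlap, and the KO arrays exceeded WT ESC, lying at 1.20 of the WT MEF to WT ESC distance. Here too WT MEF was below background, so that distance has no measured start. Triml1 rose 2.06-fold (log2 1.04, SE 0.11, adjusted p = 0.00395 in limma), and 2.03-fold against WT iPSC alone (1.02, SE 0.12, adjusted p = 0.00809).

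Fbxo15, an Oct4 and Sox2 target whose locus carried the selection marker in early mouse iPSC work, stood at 11.33 and 11.42 in KO iPSC, against 10.95 and 10.70 in WT iPSC and 10.64 in WT ESC. Again the groups did not overlap. The rise was 1.53-fold (log2 0.61, SE 0.12, adjusted p = 0.0232 in limma) and 1.46-fold against WT iPSC alone (0.55, SE 0.12, adjusted p = 0.0381). Without WT iPSC replicate 2 its adjusted p against all WT pluripotent arrays was 0.0733.

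Tcl1, which binds Akt and raises its activity, stood at 9.37 and 9.62 in KO iPSC, against 10.39 and 10.18 in WT iPSC and 10.13 in WT ESC. All KO values were below all WT values, although here the 2 KO arrays differed by 0.25, the widest KO gap of the 9 genes. Tcl1 fell 1.67-fold (log2 -0.74, SE 0.12, adjusted p = 0.015 in limma) and 1.73-fold against WT iPSC alone (-0.79, SE 0.13, adjusted p = 0.0187).

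**Figure D3:**
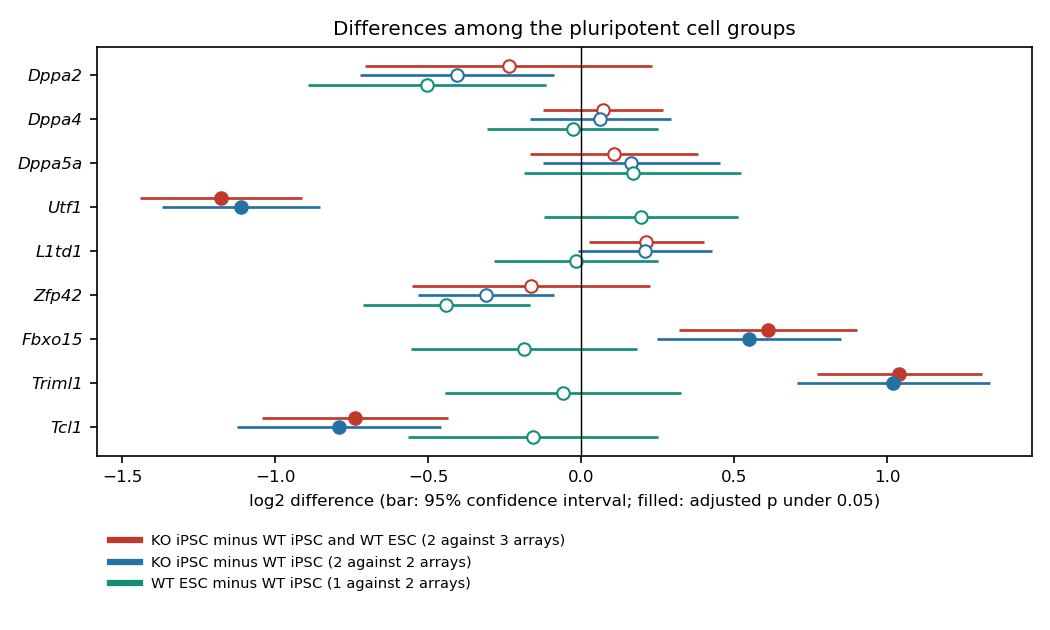
Log2 differences of the 9 genes between groups of pluripotent cells, with 95% confidence intervals; filled points have an adjusted p under 0.05. Utf1 and Tcl1 are filled on the negative side and Fbxo15 and Triml1 on the positive side for both KO contrasts, and no point of WT ESC minus WT iPSC is filled.

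The other 5 members did not pass. L1td1 was the closest, at 10.11 and 10.08 in KO iPSC, against 9.85 and 9.92 in WT iPSC and 9.87 in WT ESC. Its groups did not overlap, yet the difference of 0.21 (SE 0.08, 95% interval 0.03 to 0.40, unadjusted p = 0.0323) had an adjusted p of 0.121. Dppa2 was at 11.70 and 11.72 in KO iPSC, against 12.26 and 11.97 in WT iPSC and 11.61 in WT ESC, so the KO arrays lay between the WT groups. The interval of the Dppa2 difference ran from -0.71 to 0.23. Dppa4 hardly varied, between 9.65 and 9.78 on the 5 arrays, with an interval of -0.12 to 0.27.

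Zfp42 stood at 10.10 and 10.14 in KO iPSC, against 10.47 and 10.39 in WT iPSC and 9.99 in WT ESC, and the KO arrays again lay between the WT groups (interval -0.55 to 0.22). Dppa5a, near background throughout, had an interval of -0.17 to 0.38. A missed threshold does not show that levels were equal.

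Within iPSC alone (2 arrays against 2) the count was 2 of 9 higher and 2 of 9 lower (background: 6.93% higher and 9.55% lower), and the members called were again Triml1, Fbxo15, Utf1 and Tcl1. After quantile normalization 8.4% of all genes were higher and 8.36% lower in this comparison. The KO arrays are those of the preceding comparison, so this is no separate evidence. Dppa2 (-0.41, SE 0.12, adjusted p = 0.0926) and Zfp42 (-0.31, SE 0.09, adjusted p = 0.0744) were below WT iPSC on both arrays without passing. The calls of all members were lost when either KO iPSC replicate was left out. Without WT iPSC replicate 2 the differences were -0.55 for Dppa2 and -0.35 for Zfp42. A fit that leaves out an iPSC array holds 1 array of that genotype's iPSC. Its spread comes from the 2 iPSC arrays of the other genotype alone, and the calls over all genes also changed with the array left out.

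WT ESC minus WT iPSC measures how far the WT pluripotent cells differ among themselves (1 array against 2). In limma 0 of 9 members passed (background: 0.0812% of all genes were higher and 0.0812% lower), and 2 had an unadjusted p under 0.05. These were Zfp42 (log2 -0.44, SE 0.11, adjusted p = 0.222) and Dppa2 (-0.50, SE 0.15, adjusted p = 0.299). Without WT iPSC replicate 2 their differences were -0.48 and -0.65. That fit sets 1 array against 1, and its spread comes from the 2 KO iPSC arrays alone. For the 4 members that separated the genotypes the differences were 0.19 for Utf1, -0.06 for Triml1, -0.19 for Fbxo15 and -0.16 for Tcl1, and the 95% intervals of all 4 included 0.

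The order of the pluripotent groups was therefore not the same for every member. For Utf1 it was WT ESC, WT iPSC, then KO iPSC, and the WT neighbours did not differ beyond their error. For Tcl1 it was WT iPSC, WT ESC, then KO iPSC, and for Fbxo15 and Triml1 KO iPSC, WT iPSC, then WT ESC, in each case with no difference past the threshold between the WT neighbours. For Dppa2 and Zfp42 it was WT iPSC, KO iPSC, then WT ESC, with KO iPSC exceeding WT ESC by 0.10 and 0.13. Dppa4 and L1td1 were highest in KO iPSC, then WT iPSC and WT ESC, with no neighbours past the threshold.

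Whether the step from MEF to iPSC differed between genotypes was tested with the interaction of genotype and cell type. In limma 1 of 9 members passed, Utf1, and it was lower (background: 3.07% of all genes were higher and 5.48% lower). Its fitted step was 5.78 in KO cells, against 6.83 in WT cells, a difference of -1.05 (SE 0.18, 95% interval -1.50 to -0.60, adjusted p = 0.0318). Utf1 was below background in both MEF arrays, so neither step has a measured start, and the size of each step and of their difference is a fitted value only. The adjusted p was 0.157 without KO iPSC replicate 1 and 0.153 without replicate 2. Triml1 (0.65, adjusted p = 0.139), Fbxo15 (0.60, adjusted p = 0.153), Tcl1 (-0.65, adjusted p = 0.157), Dppa2 (-0.68, adjusted p = 0.129) and Zfp42 (-0.44, adjusted p = 0.154) each had an unadjusted p under 0.05 and did not pass. These genes too were below background in both MEF arrays, so their steps have no measured start either. With a WT iPSC array left out, that group holds 1 array and the spread comes from the 2 KO iPSC arrays alone. Over all settings the fitted value ran from 0.51 to 0.80 for Triml1, 0.47 to 0.72 for Fbxo15 and -0.78 to -0.53 for Tcl1. It ran from -0.83 to -0.54 for Dppa2 and from -0.48 to -0.36 for Zfp42.

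Members share chromosomes, and their neighbours give a view of the loci. On chromosome 8 Triml1, Triml2 and Zfp42 follow each other among the measured genes. Triml2, of the same family as Triml1, stood at 11.36 on both KO iPSC arrays, against 10.74 and 10.55 in WT iPSC and 10.74 in WT ESC. It rose by 0.68 (SE 0.09, adjusted p = 0.00827), as Triml1 did, while Zfp42, next in line, did not pass. The genes that flank the 3, Zfp353-ps and Adam26b, lay below background on every array. On chromosome 16 Dppa4 and Dppa2 are adjacent, and neither passed. Morc1, a germ line silencing factor 2 measured genes beyond Dppa2, gave 0.85 (adjusted p = 0.132), and within iPSC 0.53 (adjusted p = 0.0337).

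On chromosome 18 Timm21, of the mitochondrial import machinery, lies beside Fbxo15 and fell (log2 -1.14, adjusted p = 0.00564), opposite to Fbxo15, while Cyb5a on the other side gave -0.06. On chromosome 9 the oocyte gene Ooep, beside Dppa5a, fell (-1.42, adjusted p = 0.037) at a measurable level, 7.75 and 7.86 in KO iPSC, against 9.82 and 9.18 in WT iPSC and 8.67 in WT ESC. On chromosome 12 the Tcl1 relative Tcl1b4 (-0.02) and Tunar (-0.39, adjusted p = 0.0739) flank Tcl1, and within iPSC Tunar fell (-0.48, adjusted p = 0.0298). Kndc1 beside Utf1 on chromosome 7 gave -0.03. The neighbours of L1td1 on chromosome 4, Patj (-0.58, adjusted p = 0.111) and Kank4 (0.15), did not pass.

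Family members and partners were listed by name: 10 of 11 were measured, and 2 rose, 1 fell and 7 did not pass, beside 6.89% of all genes higher and 8.81% lower. Triml2 and Dppa1 rose, but Dppa1 (0.60, adjusted p = 0.0182) was below background on all arrays, so its value describes no measured level. Lin28a, an RNA-binding protein that works with L1td1 in human ESC, fell (-1.85, SE 0.23, adjusted p = 0.00668). Dppa3, an oocyte and germ cell protein, stood at 6.38 and 6.53 in KO iPSC, against 6.71 and 7.26 in WT iPSC and 8.20 in WT ESC (-0.93, adjusted p = 0.189). The Tcl1b genes are near copies of each other whose probe sets may share signal. Tcl1b1 (0.29), Tcl1b2 (0.36) and Tcl1b4 (-0.02) did not pass, and Tcl1b3 and Tcl1b5 lay below background on all arrays. Yy1, the relative of Zfp42, gave 0.04. Without KO iPSC replicate 1 or 2, 0 of these 10 passed.

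Fbxo15, Utf1, Zfp42, Dppa2, Dppa4, Dppa5a and Tcl1 were among the candidates screened for the first iPSC. Of 15 other such candidates measured, 1 rose (Stat3, 0.65) and 2 fell (Nanog and Sox15, -1.43), with a list median of 0.09, beside 6.89% of all genes higher and 8.81% lower. With either KO iPSC replicate left out, 0 were higher and 1 lower. Pou5f1 (0.27) and Sox2 (-0.22) did not pass. In 31 other ESC-associated genes 1 rose (Rif1, 0.39), 11 fell and 19 did not pass, with a median of -0.35, where 6.89% of all genes were higher and 8.81% lower. The 4 with the largest falls were the Nodal antagonist Lefty1 (-2.56, SE 0.42), the piRNA factor Mael (-2.40, SE 0.21), the growth factor Fgf4 (-2.18, SE 0.12) and Lin28a. Without KO iPSC replicate 1 the list held 3 falls (0.83% of all genes were lower), without KO iPSC replicate 2 it held 2 (1.04%), and when the first WT iPSC replicate was left out it held 14 (11%).

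Dppa2 and Dppa4 are known activators of two-cell embryo genes in mouse ESC. Of 16 such genes measured, 0 passed in limma (4 with an unadjusted p under 0.05), with a median of 0.55, beside 6.89% of all genes higher. Without WT iPSC replicate 1, 11 were higher, the list median was 0.76, and the share of all genes higher was then 7.8%. With a KO array dropped instead, the list median was 0.57 (replicate 1 dropped) or 0.49 (replicate 2 dropped). Those 2 fits hold 1 KO value, so only their medians are given. These medians do not show that the 11 calls hold. Usp17lb, Usp17lc, Duxf3, Tcstv1, Tcstv3 and Tdpoz4 lay below background on every array. Because these lay below background throughout, the 11 cannot all be genes with a measured level. Zscan4e, of a multi-copy family whose probe sets may share signal, stood at 11.22 and 11.09 in KO iPSC, against 11.28 and 9.23 in WT iPSC and 7.75 in WT ESC. WT iPSC replicate 1 thus lay with the KO arrays for Zscan4e. Among the pluripotent arrays, WT iPSC replicate 1 was highest and WT ESC lowest for Zscan4e and also for Dppa2 (12.26 and 11.61). Between them the orders differed: WT iPSC replicate 2 had more Dppa2 (11.97) than both KO arrays (11.70 and 11.72) and less Zscan4e. A link between the levels of Dppa2 and Zscan4e was not tested.

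**Figure D4:**
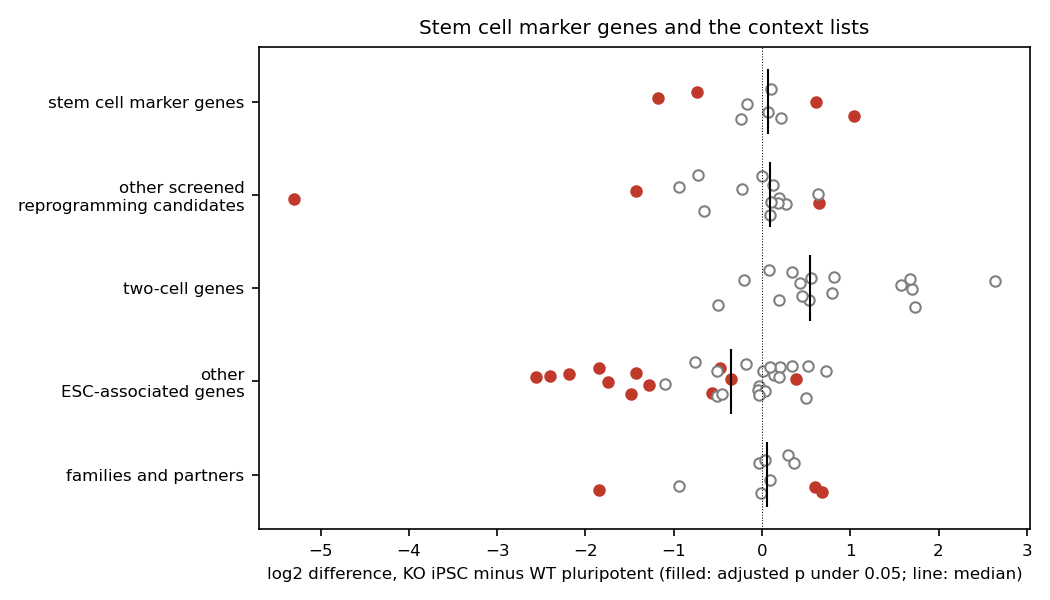
Log2 difference of KO iPSC minus the WT pluripotent arrays for the 9 stem cell marker genes and for 4 lists of related genes, with a point per gene, filled where the adjusted p is under 0.05, and a line at each list's median. The medians are 0.07 for the marker genes, 0.09 for other screened candidates, 0.55 for two-cell genes, -0.35 for other ESC-associated genes and 0.06 for families and partners.

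Genes with the most similar profile were sought by the root mean square distance over the 7 arrays between log2 profiles centred on their own means, a description with no test, in which the gap between pluripotent arrays and MEF takes the largest share. For Utf1 the nearest were Zfp981 (0.356) and Sox2 (0.405), and for Triml1 Tfcp2l1 (0.312) and Gm10324 (0.410). For Fbxo15 the same genes came first, Gm10324 (0.234) and Tfcp2l1 (0.254), and Fbxo15 and Triml1 were each other's nearest member (0.258). For Tcl1 they were Hsf2bp (0.120) and the glucose transporter gene Slc2a3 (0.143).

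Among the members that did not separate the genotypes, the nearest genes were Rex2 (0.168) and Gm7762 (0.214) for Dppa2, Amt (0.0887) and Gm14406 (0.121) for Dppa4, and 2410003L11Rik (0.0870) and Aim2 (0.102) for L1td1. They were Gm14393 (0.184) and AU018091 (0.184) for Zfp42. Dppa4 and L1td1 were each other's nearest member (0.258). For Dppa5a the nearest were Gm6987 (0.0202) and Lypd3 (0.0364), profiles as flat as its own.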

How the data were processed

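The deposited values are probe set intensity values on a linear scale, made by the authors with RMA and Affymetrix Expression Console (version 1.3.0.187), per the submitters' processing notes; other steps are not given in the sources used here. Per the labels' protocols, each array received 5.5 ug of labelled cDNA made from 73.5 ng of RNA. The log2 was taken here, with no further normalization; array medians ran from 6.56 to 6.66, and precision is limited by how few arrays there are. The platform annotation gave 1 symbol to 23521 of 33649 probe sets, several to 1814 and none to 8314, and 23328 matched RefSeq (GRCm38.p6) by Entrez identifier. The brightest single-symbol probe set stood for each of 22180 genes, 1082 of which had several.

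Differences were tested in R 4.3.3 by limma 3.58.1 (functions lmFit and eBayes, two-sided), Benjamini-Hochberg adjusted over all genes, threshold 0.05. KO iPSC against WT pluripotent cells used those 5 arrays, and other comparisons 1 fit of 7 arrays with a coefficient per group. The fits were tested on simulated data. The p-values measure only the spread between these samples. Counts of genes with an unadjusted p under 0.05 stand without a share of all genes beside them, because that share was not counted. Where the dim group lay below background on every array, the fold is a lower bound against that background, and log2 differences beside it are fitted values.

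The members and lists were chosen with earlier results of these data known. Named are all members, Nanog, up to 4 called genes per list with the largest differences, the family list, and the 2 nearest profiles per member; Pou5f1, Sox2, Zscan4e and genomic neighbours were added after their values were seen. Alternatives were the gene filter, median centring, quantile normalization, trend and robust fitting, mean probe sets, a replicate block and left-out arrays. Counts of lists without single arrays were added after seeing the data. Protein sequences were not used here.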

Additional observations from a re-analysis of the deposited data

Results flagged for a closer look

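Utf1 passed the interaction test of genotype and cell type, with a fitted log2 difference between the KO and WT steps from MEF to iPSC of -1.05 (SE 0.18, adjusted p = 0.0318 in limma, 2 KO iPSC and 1 KO MEF arrays against 2 WT iPSC and 1 WT MEF arrays). Utf1 was below background in both MEF arrays, so neither step has a measured start. The difference within iPSC alone was -1.11, and both KO iPSC arrays lay below both WT iPSC arrays. The interaction was called for 1 of 9 members and for 8.55% of all genes. The call was lost without KO iPSC replicate 1 (adjusted p = 0.157) or replicate 2 (adjusted p = 0.153).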

How the results depend on the processing

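Against all WT pluripotent arrays, the number of members past the threshold was 4 in the main setting and 0 to 4 with 1 iPSC array left out. It was 0 with both KO iPSC arrays counted as 1, where 4 had an unadjusted p under 0.05. The log2 values over all settings ran from -1.26 to -1.11 for Utf1, 0.98 to 1.12 for Triml1, 0.55 to 0.71 for Fbxo15 and -0.86 to -0.62 for Tcl1. Their adjusted p ran from 0.000718 to 0.0545, 0.00162 to 0.0664, 0.00854 to 0.181 and 0.0111 to 0.142 in that order. Over all genes the calls numbered 3483 in the main setting, 341 when KO iPSC replicate 1 was left out, 403 when replicate 2 was, 365 with both KO arrays as 1, and 2230 without WT iPSC replicate 2. Fits that leave out a KO array hold fewer arrays and take their spread from WT arrays alone. The SD over all genes of the difference between the 2 iPSC arrays was 0.154 for KO and 0.323 for WT. The part of each in the number of calls was not tested.

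Within iPSC the count of members past the threshold depended on which array was left out. Such a fit holds 1 array of that genotype's iPSC and takes its spread from the 2 iPSC arrays of the other genotype alone. This also holds for WT ESC minus WT iPSC and for the interaction. Samples with the same replicate number did not deviate together (correlation 0.0166 over genes), so the numbers were not taken as pairs, and with the replicate block the count was 3, with Fbxo15 at an adjusted p of 0.0555 and 3279 genes called against 3656 without the block. Over all genes, with 1 array left out, the calls within iPSC ran from 519 to 5979. For WT ESC minus WT iPSC the members past the threshold were 0 to 2, and over all genes 36 in the main setting, 95 with trend and robust fitting, 1 when either KO iPSC replicate was left out, and 895 or 2289 with a WT iPSC array left out (replicate 1 or 2). For the interaction the members were 0 to 4, and the calls 1897 in the main setting and 89 or 158 with a KO iPSC array left out (replicate 1 or 2), 5016 or 4837 with a WT iPSC array left out (replicate 1 or 2). The filter, median centring, quantile normalization, trend and robust fitting and mean probe sets kept the iPSC against MEF count at 8 in both genotypes. The share of all genes called ran from 31.9% (WT, median centring) to 51.1% (KO, the filter). Over all settings run, the fitted differences of those 8 genes ran from 3.29 to 6.92. These alternatives also kept the 4 named members past the threshold in both KO iPSC contrasts, where 15.6% to 24.6% of all genes were called. Median centring moved the median of all genes by less than 0.1 in each of the 6 comparisons. Dim probe sets, Dppa5a and most MEF values, limit what can be ordered.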
